A study of Arabidopsis thaliana with 4 samples.

Results

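The genes described here are the 167 Arabidopsis thaliana genes for which the authors listed between 10 and 22 alternative splicing events. They were found by counting the events listed for each gene, and the SR genes AT1G02840 and AT4G02430, which met the same count, were left out. They make up 3.17% of the 5268 genes with any listed event and hold 2138 (15.1%) of the 14133 events. Membership rests on the number of events alone, so the event types, the inclusion levels and the differences between ecotypes were not used to choose them.

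The events come from RNA sequencing of 2 samples of the ecotype Col and 2 of the ecotype Ler, and the labels name no further genotype or treatment. Seedlings were 14 days old and had grown at 22 °C with 8 h of light and 16 h of darkness. The labels name the first leaf as source and, in the extraction text, shoots. The 2 samples of an ecotype were deposited as 1 pooled value, so no value below has a standard deviation or a number of replicates, and no test over samples could be made. Read depth per event is unknown.

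An intron is cut out of the pre-mRNA between a donor (5′ splice site, usually GT) and an acceptor (3′ splice site, usually AG). Splicing becomes alternative when an intron is sometimes kept (intron retention), when one of several donors or acceptors is used (alternative 5′ or 3′ sites), or when a whole exon is left out (exon skipping). Intron retention is the most common form in land plants, and many plant isoforms carry premature stop codons that send them to nonsense-mediated decay. The inclusion level of an event is the percentage with the longer exon, the retained intron or the included exon. A retention level is set against 1 particular junction, so it can be high where that junction is rarely used and another one removes most of the same intron.

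The clusters of alternative sites that make up these event lists can be read in the genome. The splice sites below were read from the RefSeq copy of the TAIR10.1 reference, which is Col sequence, with 8 exon and 12 intron bases each, in the direction of the transcript. Capitals mark the first pair of intron bases of a donor or the last pair of an acceptor. FSD1 encodes an iron superoxide dismutase that removes superoxide in the chloroplast, and its 5 alternative donors on the 5′ side of the coding span are shown because 1 of them took nearly all use in both ecotypes.
FSD1 donor at 0 bp, chr4:12886706-12886725, minus strand: aacttgagGTactgattcta
FSD1 donor at 51 bp, chr4:12886655-12886674, minus strand: tttctctgGTctcttactct
FSD1 donor at 102 bp, chr4:12886604-12886623, minus strand: acataaacGCatgtatacat
FSD1 donor at 106 bp, chr4:12886600-12886619, minus strand: aaacgcatGTatacattttc
FSD1 donor at 128 bp, chr4:12886578-12886597, minus strand: gtgtctttGTaaggatattg

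LUH encodes a LEUNIG-like transcriptional co-repressor. Its 5 acceptors on the 5′ side of the coding span are shown because they hold 2 pairs of sites that lie 3 bp apart.
LUH acceptor at 0 bp, chr2:13867025-13867044, plus strand: ctgtatgtgtAGcagcaatg
LUH acceptor at 3 bp, chr2:13867028-13867047, plus strand: tatgtgtagcAGcaatgctt
LUH acceptor at 156 bp, chr2:13867181-13867200, plus strand: tttggattgaAGatttgaat
LUH acceptor at 175 bp, chr2:13867200-13867219, plus strand: ttccttttatAGcagctcga
LUH acceptor at 178 bp, chr2:13867203-13867222, plus strand: cttttatagcAGctcgatct

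VAB2 encodes a B subunit of the vacuolar proton pump (V-ATPase). Its 4 donors are shown because the marked events at them were all higher in Ler.
VAB2 donor at 0 bp, chr4:18015054-18015073, minus strand: agaaagagGTacgtacactc
VAB2 donor at 106 bp, chr4:18014948-18014967, minus strand: ctctgaggGTaagtaatccc
VAB2 donor at 163 bp, chr4:18014891-18014910, minus strand: aaaattggGTaaaatggaac
VAB2 donor at 182 bp, chr4:18014872-18014891, minus strand: cgaattaaGTagattcacgt

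AT5G44580 encodes an uncharacterized protein. Its 5 acceptors are shown because the minor ones in use differed between Col and Ler, while the last was the main one in both. The intron end before the site at 9 bp reads AT in the Col reference, and that site was listed at 0 in Col against each acceptor further on.
AT5G44580 acceptor at 0 bp, chr5:17979508-17979527, plus strand: gatgcgaaatAGtctattca
AT5G44580 acceptor at 9 bp, chr5:17979517-17979536, plus strand: tagtctattcATggaacttt
AT5G44580 acceptor at 23 bp, chr5:17979531-17979550, plus strand: aactttcaatAGatagatca
AT5G44580 acceptor at 27 bp, chr5:17979535-17979554, plus strand: ttcaatagatAGatcattga
AT5G44580 acceptor at 109 bp, chr5:17979617-17979636, plus strand: aaatacgtatAGggaggaag

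AT2G30600 encodes a protein with a BTB/POZ domain, a fold found in substrate adaptors of ubiquitin ligases. The pair of acceptors below, 6 bp apart, is shown because use moved from the first towards the second in Ler.
AT2G30600 acceptor at 0 bp, chr2:13040359-13040378, plus strand: tttcacctctAGttcaagat
AT2G30600 acceptor at 6 bp, chr2:13040365-13040384, plus strand: ctctagttcaAGattccaac

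A median member had 12 events. There were 48 genes with 10 events, the lower limit, and 1 gene with 22, AT5G47455. These events rested on a smaller number of splice junctions: the median was 8 distinct junctions per gene (4 to 20), joined from a median of 5 donors and 6 acceptors. In 149 of the 167 genes there were fewer junctions than events. Of the 2138 events, 1879 (87.9%) shared an interval end with another event of their gene, against 56.0% of all events, a share that grows with the number of events per gene.

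**Figure D1:**
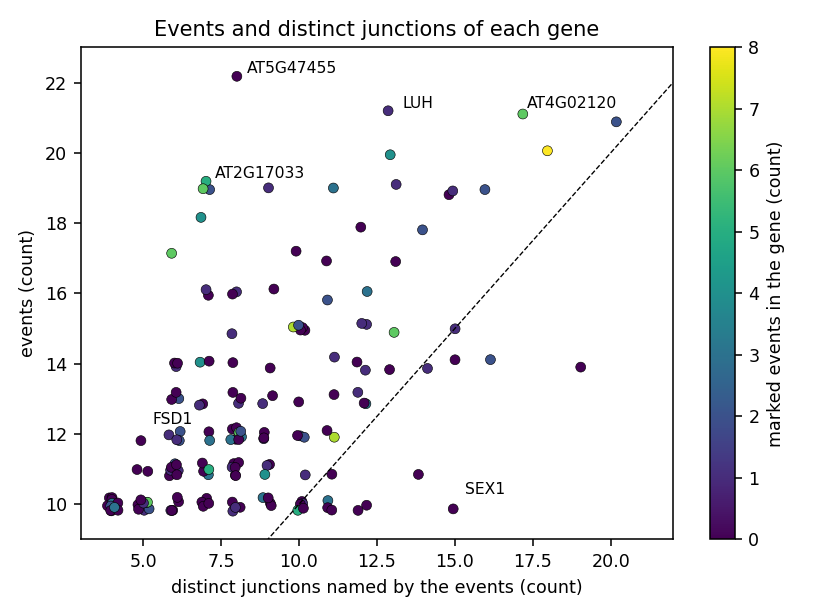
Events per gene (vertical axis, count) against the distinct junctions they name (horizontal axis, count) for the 167 genes, with points shifted slightly so that they do not cover each other and coloured by the count of events that the authors marked as different between Col and Ler. The dashed line marks equal counts, and 149 genes have fewer junctions than events.

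The events were packed into few places. Where overlapping intervals were joined into regions, a gene had a median of 3 regions (1 to 11). In 38 genes every event lay in 1 region, and in 119 at least 50% of the events did. AT5G47455, an uncharacterized protein gene on chromosome 5 (19250659 to 19252491, plus strand), named only 8 junctions from 4 donors and 4 acceptors, and its 22 events all lay in 1 region.

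One arithmetic source of high event numbers could be counted directly. Where several donors shared 1 acceptor, or several acceptors 1 donor, the table listed each pair of sites as an event of its own. There were 137 such sets with at least 3 sites, in 121 genes, of which 87 were acceptor sets and 50 donor sets. All 137 listed every possible pair, and together they gave 542 events. In 37 sets there were 4 or more sites, and 5 sets had 5 sites and hence 10 events each. Those 5 sets were in LUH, FSD1, AT5G44580, the protein kinase gene AT4G31170 and TMT2, a sugar transporter of the vacuolar membrane.

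**Figure D2:**
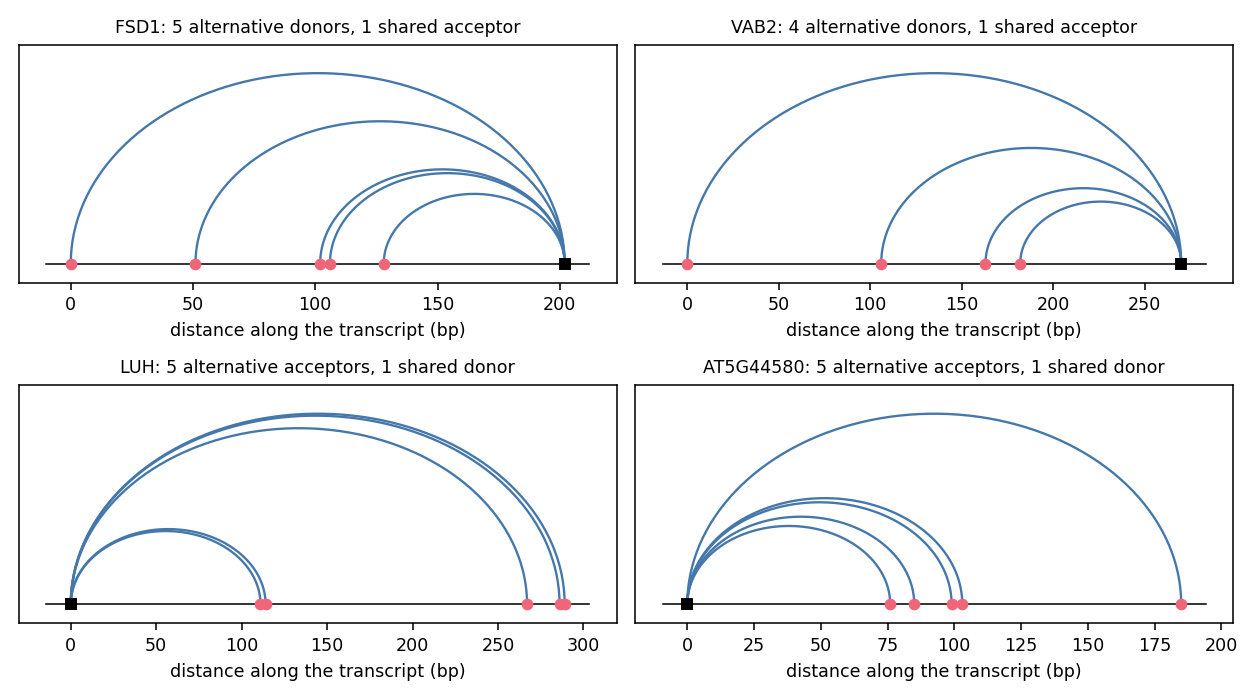
Alternative sites of 4 genes along the transcript (horizontal axis, distance in bp, 5′ to 3′). Red circles are the alternative sites, black squares the site they share and arcs the junctions. In LUH the 5 acceptors form close pairs, while in FSD1 the 5 donors spread over 128 bp.

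Intron retention was the most frequent event type of the 167 genes, with 978 events (45.7%), below its share among all events (52.4%). Alternative 3′ sites gave 594 events (27.8%, against 28.5% of all) and alternative 5′ sites 385 (18.0%, against 15.1%). Exon skipping gave 181 events (8.47%), beside 4.04% of all events. The authors labelled such events as skipping of an exon or of an intron, and both labels were counted together here. None of the 2506 genes with 1 event had a skipping event, so such genes lower the share of the series. Skipped exons such as those of AT2G16990 were also listed in alternative 3′ and 5′ events on the same outer junction. A gene listed in this way has more than 1 event. The part of this listing in the event mix was not tested. All 4 types occurred in 79 genes, 81 genes had no skipping event and 7 had no retention event. Retention made up the majority in 64 genes, alternative 3′ sites in 15 and alternative 5′ sites in 10.

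**Figure D3:**
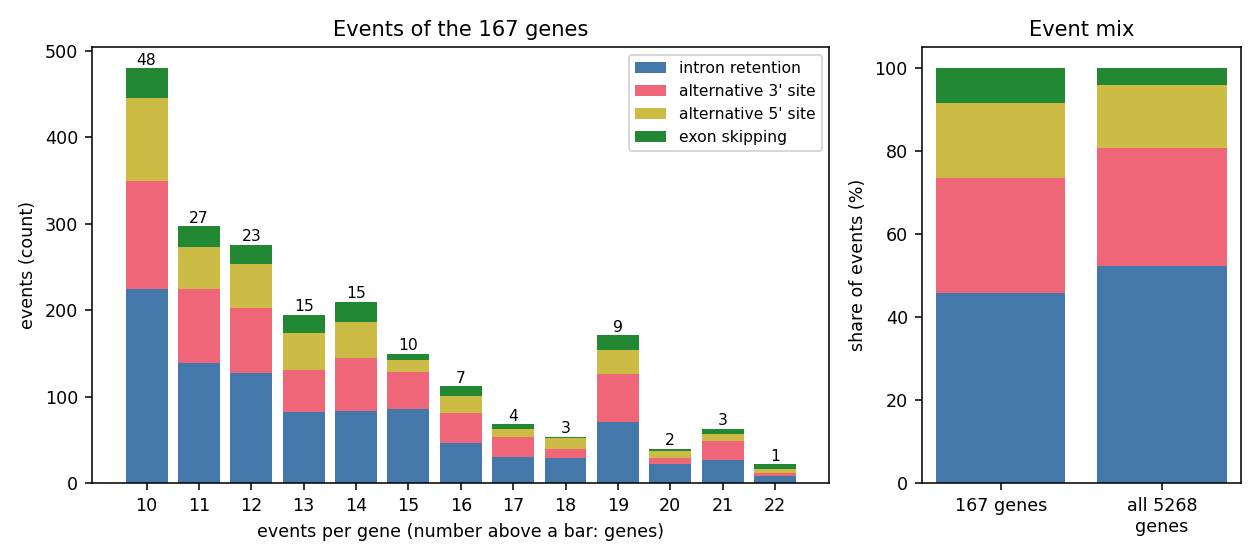
Left, events (count) by type for genes with each number of events, with the number of genes above each bar. Right, the mix of types as a share of events (%): retention is 45.7% in the 167 genes and 52.4% over all 5268 genes.

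The members were larger than the median gene of the table. They had a median of 8 annotated introns (6 over all genes), 4 annotated transcripts (2) and 3121 bp (2753). Of their 1450 distinct junctions 1384 (95.4%) ran from GT to AG in the reference, beside 95.5% over all genes, and 31 (2.14%) ran from GC to AG. The third FSD1 donor printed above begins with GC. The annotation held 822 (56.7%) of these junctions, beside 67.9% over all genes.

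The listed steps between alternative sites were longer than over all events. The median was 28 bp for alternative 3′ sites (12 bp over all events) and 128 bp for alternative 5′ sites (45 bp). These include alternative site events on the outer junction of a skipped exon, whose step spans the exon and an intron. AT1G08910 has such steps of 492 bp (3′) and 366 bp (5′). Such events were not separated here or in the shares of segments below. A skipped exon had a median of 80 bp and a retained interval 120 bp. Steps of exactly 3 bp between acceptors, as in LUH, numbered 39 in members and 518 over all events. Within the coding span, 163 of 470 alternative 3′ segments (34.7%, against 38.2% over all genes) and 89 of 263 alternative 5′ segments (33.8%, against 30.5%) were a multiple of 3 bp long. The same held for 40 of 138 skipped exons (29.0%, against 32.0%). Most alternative segments, 78.6%, lay within the coding span and 13.5% lay on its 5′ side.

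Inclusion levels were similar in the ecotypes over the members as a whole. The median level was 69.9% in Col and 69.2% in Ler, above the medians of all events (56.1% and 55.6%). Retention had a median of 69.2% in Col and 70.1% in Ler, where all retention events had 48.7% in both. Only 463 (47.3%) of the 978 member retention intervals were annotated introns, beside 62.4% of all. Those 463 had medians of 28.4% and 27.7%, while the other 515 had 86.4% and 87.5%. Over all genes the medians were 22.0% and 22.4% for annotated introns and 86.8% and 86.5% for the others. Skipped exons were mostly included, with medians of 91.6% in Col and 90.6% in Ler.

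The median absolute difference between Col and Ler was 3.98 percentage points (3.78 over all events). It was 5.20 points for retention, 3.53 for alternative 5′ sites, 2.86 for alternative 3′ sites and 2.55 for skipping. A difference within 5 points was found for 1188 events (55.6%) and one over 10 points for 563 (26.3%). Across the 2138 events, which share junctions and pooled libraries, Pearson's r was 0.900 and Spearman's rho 0.889, given as a description.

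**Figure D4:**
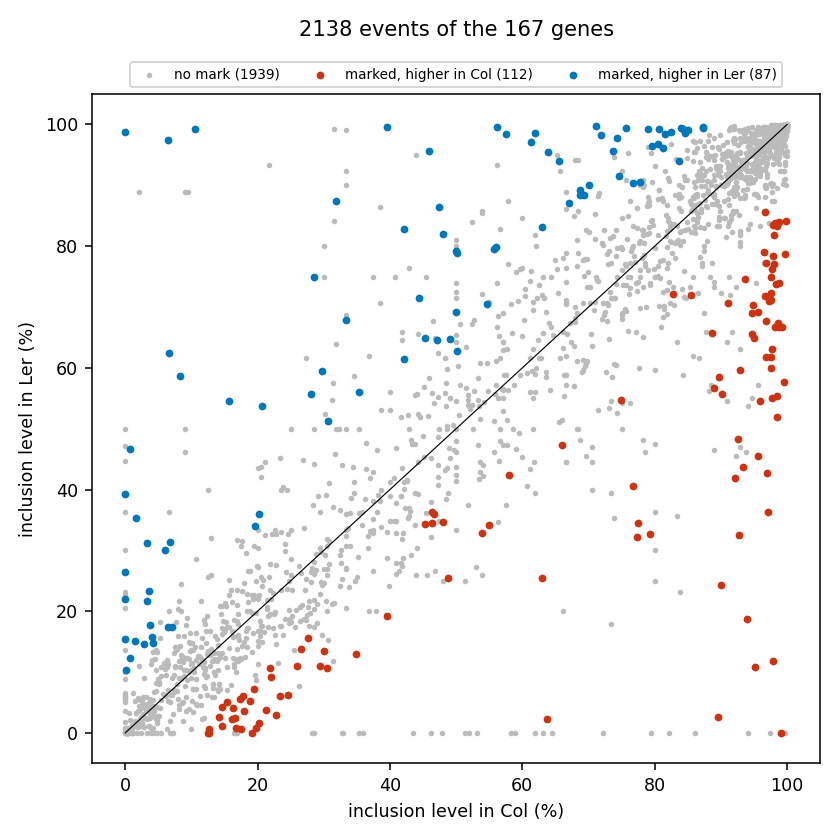
Inclusion level in Ler (vertical axis, %) against Col (horizontal axis, %) for the 2138 events, with 1 pooled value per ecotype. Coloured points are the 112 events that the authors marked as higher in Col and the 87 marked as higher in Ler, and the line marks equal levels. Events listed at 0 in one ecotype lie along the axes.

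The authors put a direction sign on events that they called different, and every signed event had a q value below 0.05 and a difference above 10 points in the authors' deposited table. Of the 2138 member events 199 (9.31%) carried a mark, with a 95% Wilson interval of 8.15% to 10.6% that covers counting of events only. Over all events of the series the share was 7.46%. A mark for higher in Col stood on 112 events (4.08% of all events had one) and a mark for higher in Ler on 87 (3.38% of all). Col thus had 56.3% of the marks, with an interval of 49.3% to 63.0% and 54.7% over all marked events. Events of a gene share junctions, so the 199 marks are not independent observations.

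By type, 112 (11.5%) of the retention events were marked, 59 of them higher in Col and 53 in Ler, beside 8.38% of all retention events. Marks stood on 46 (7.74%) of the alternative 3′ events, beside 6.28% of all, and on 22 (5.71%) of the alternative 5′ events, beside 6.32%. For skipping there were 19 marks (10.5%), beside 8.06% of all. The 40 marks on the 5′ side of the coding span were 13.9% of the events there, beside 11.3% over all genes, and the 148 marks within the coding span were 8.80%, beside 6.87%. On the 3′ side 4 events (4.26%) were marked, beside 5.91% over all genes.

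At least 1 marked event was found in 79 of the 167 genes (47.3%), where 13.5% of all genes had one. A gene with more events has more chances of a mark. There were 33 genes with a single mark and 46 with several, of which 20 had marks only for Col, 7 only for Ler and 19 in both directions. Over all genes 193 had several, 78 only for Col, 50 only for Ler and 65 in both directions. Several marks of a gene can stand on 1 exon listed in several events. The 30 genes with 3 or more marks held 134 (67.3%) of the 199. At the lower limit, genes with 9 events had marks on 46 of 504 events (9.13%) and genes with 10 events on 37 of 480 (7.71%). At the upper limit, the gene with 22 events had no mark and the gene with 23 had 6.

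Marks were more frequent where the interval itself differed between the genomes. For 373 member events (17.4%) the authors gave the interval another length in Ler than in Col or no Ler coordinate. Of these 78 (20.9%) were marked, beside 121 (6.86%) of the 1765 with equal lengths. Over all events the corresponding shares were 16.4% and 5.73%. The part of these length differences in the marks was not tested, and lengths that differ are given below beside the values they belong to.

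The genes with most marks, and AT2G30600 with 4, are described first. AT3G23480, annotated as a cyclopropane-fatty-acyl-phospholipid synthase, had 8 marks among 20 events. An acceptor step of 1 bp had a level of 99.1% in Col, while Ler, where the interval measured 1345 bp in place of 1408, was listed at 0. A retention level was 93.9% in Col and 18.8% in Ler (52 and 93 bp). A second stretch of the gene showed the opposite order: its 5 marked site and skipping events had levels of 75.6% to 87.3% in Col, while those of Ler reached 99.3% to 99.7%. The interval of 4 of them measured 257 bp in Col against 261 bp in Ler, and that of the other 103 against 107 bp. Annotated neighbours of this gene carry the same product name, and it overlaps 2 other genes.

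AT2G16990, annotated as a major facilitator superfamily transporter, had 7 marks among 12 events, all higher in Col. Its Col levels were 95.7% to 98.8%, while the Ler levels lay between 36.4% and 73.9%. The largest step was an alternative 3′ event at 97.1% and 36.4%, with interval lengths of 462 bp in Col and 480 bp in Ler. Nearby genes again share its product name.

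EMB2820, a member of the cytidine and deoxycytidylate deaminase family, also had 7 marks. Its 5 marked retention events were all higher in Ler. On the 5′ side of the coding span 2 introns were retained at 8.33% and 1.67% in Col and at 58.6% and 35.3% in Ler. In the same stretch an alternative 3′ event stood at 99.7% in Col against 78.7% in Ler, over an interval of 509 and 499 bp. The intron with the largest change had 74 bp in both genomes.

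AT1G07280 encodes a tetratricopeptide repeat protein. All 5 of its marks were retention events with higher levels in Ler. Retention of the 5′ intron was 3.56% (Col) and 23.4% (Ler). Inside it, intervals starting at 2 inner donors had levels of 39.5% and 56.1% in Col and 99.6% each in Ler. The 3 inner-donor pairs, at 2.40% to 32.9% in Col, were each listed at 0 in Ler, without a mark. The authors' deposited table nevertheless gives the pairs of the first donor with the 2 inner ones q = 2.34e-11 and 1.30e-05. The whole intron was 213 bp long in Col but 188 bp in Ler, and the inner intervals 82 and 78 bp against 57 and 53 bp.

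In AT3G61420, a gene with a BSD domain found in transcription factor subunits, an 88-bp interval had a retention level of 6.49% in Col against 97.5% in Ler, with equal lengths in both genomes. The authors' deposited table gives this event q = 1.77e-69. An overlapping interval of 82 bp stood at 95.8% and 92.0%. Of the other 5 marks of the gene, 3 were higher in Ler and 2 in Col.

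The marks of AT5G44580 describe a change among its minor acceptors. Of the pair at 9 and 23 bp, the first site took 98.8% in Ler, while Col was listed at 0. Of the pair at 0 and 9 bp, the first site took 85.7% in Col and 61.9% in Ler, without a mark. Against the acceptor at 23 bp, the one at 0 bp was used at 10.5% in Col and 99.2% in Ler. Both still made up a minority beside the last acceptor: the site at 0 bp had 0.143% in Col and 10.3% in Ler, and the site at 9 bp 0 and 6.53%. The sites at 23 and 27 bp, in contrast, had 1.18% and 0.286% in Col and were listed at 0 in Ler against that last site. Intervals were equally long in both genomes, and the letters of the Ler genome were not analysed here.

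AT2G30600 shows the same kind of change over 6 bp. The first acceptor printed above had 99.3% of the pair in Col and 66.7% in Ler. The retention level set against the second acceptor was 97.8% in Col and 11.8% in Ler, while the one set against the first acceptor was 24.6% and 6.25%. Both genomes gave 98 bp for the longer interval. A further intron had a retention level of 16.2% (Col, 146 bp) against 4.01% (Ler, 148 bp), so that all 4 marks were higher in Col.

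In VAB2 all marked events involved the junction that leaves out 1 exon, on the 5′ side and at the coding start. The donor at 0 bp lies before this exon, and the other printed donors end it. Against the donor at 0 bp, the donor at 106 bp had 30.6% in Col and 51.3% in Ler, and the donor at 163 bp had 50.2% and 78.9%. Exons that start at 1 common acceptor and end at the inner donors were included at 56.1% to 69.4% in Col and at 79.8% to 88.4% in Ler. All 6 marks were thus higher in Ler, on events that share these junctions.

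ARF1 encodes an auxin response factor, a transcription factor that binds auxin-responsive promoters. It had 6 marks, 4 of them higher in Ler. Inclusion of an exon on the 5′ side was 68.7% (Col, interval of 960 bp) and 89.2% (Ler, 962 bp), and that of a donor step of 6 bp in the coding span 61.9% and 98.5%. AT4G02120, a CTP synthase family gene with 21 events, had 6 marks on retention events. Of these 4 were higher in Col, such as introns at 16.8% and 20.2% in Col against 0.885% and 1.63% in Ler. Another stood at 57.5% in Col against 98.5% in Ler, where the interval measured 92 bp in place of 68.

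AT4G16710, a glycosyltransferase family gene, had 6 marks among 19 events, 4 higher in Col and 2 in Ler. Its 65-bp interval on the 5′ side was kept at 79.3% in Col against 32.7% in Ler, where it measured 91 bp. An acceptor step of 23 bp there had the opposite order, 61.4% and 97.1%, over 88 and 114 bp. A longer interval of 434 bp in Col and 571 bp in Ler stood at 98.7% and 66.7%. The gene overlaps 2 others.

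**Figure D5:**
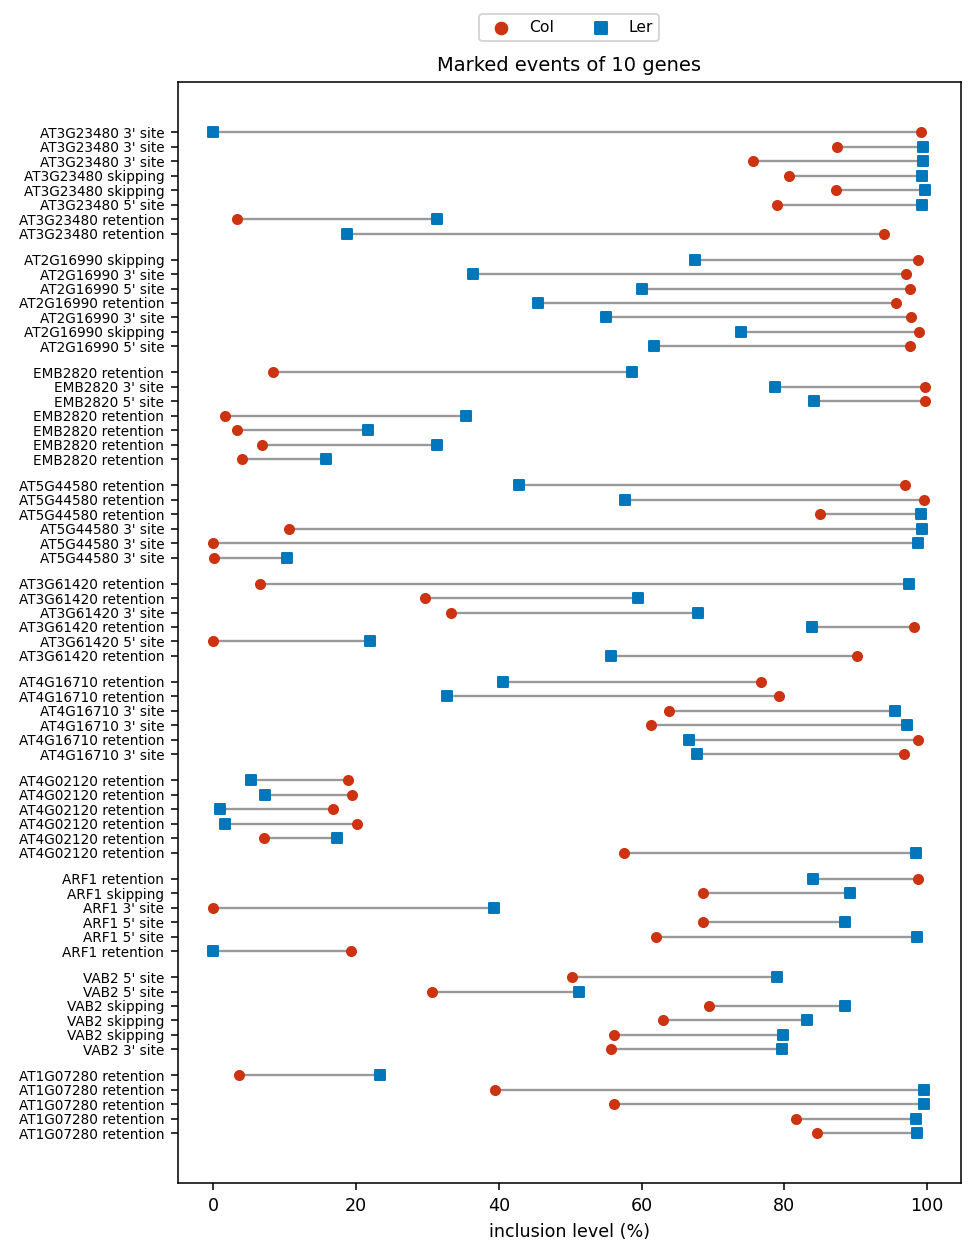
Inclusion levels (horizontal axis, %) in Col (red circles) and Ler (blue squares) for every marked event of the 9 genes with 6 or more marks and of AT1G07280, which among 4 genes tied at 5 marks has the largest difference, with 1 pooled value per ecotype and lines joining the values of an event. In AT2G16990 all 7 lines run from high Col values to lower Ler values, and in VAB2 and AT1G07280 all run from Col to higher Ler values.

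Large marked differences also appeared singly. RIK encodes a KH-domain RNA-binding protein that interacts with the leaf-patterning regulator RS2. Its acceptor step of 6 bp stood at 89.6% in Col and 2.65% in Ler, and the authors gave no Ler coordinate for it. ATX1, a copper chaperone, had a retention level of 45.9% in Col and 95.7% in Ler over 638 and 640 bp. BGLU5, a beta-glucosidase, had 3 retention marks, all higher in Ler, the largest at 6.59% and 62.5% (78 and 91 bp).

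SOS4 encodes a pyridoxal kinase, which makes the active form of vitamin B6. At its 4 donors, the one at 33 bp against the first had 28.6% in Col (interval of 125 bp) and 74.9% in Ler (127 bp). The retention level set against that same donor was 63.7% in Col and 2.25% in Ler, with interval lengths of 92 and 94 bp. THIC, the pyrimidine synthase of vitamin B1 formation, had 1 mark among 16 events. Its outermost acceptors in the coding span, 19 bp apart, stood at 31.8% in Col and 87.5% in Ler, while the second acceptor took 99.7% and 99.9% against the last. The region behind the stop codon of THIC is known for a thiamine-sensing riboswitch that acts on splicing, and the intron there had 7 events and no mark. The retention level set against its second acceptor was 81.7% in Col and 85.1% in Ler.

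Genes for RNA binding and splicing, grouped by words in the annotated product, numbered 13 among the members. They held 22 marks on 157 events (14.0%, beside 9.31% of all member events and 7.46% of all events). Of these marks 14 were higher in Col and 8 in Ler, and they lay in 6 genes. The share depends on the words: they take in the pentatricopeptide repeat genes AT2G17033 and AT4G18975, with 5 marks each, and AT3G59300, with 1. They leave out PRP39, with no mark, and RIK, with 1. The marked share of this group over all genes was not computed. AT5G09880, a CC1-like splicing factor, had 5 marks that were all higher in Ler. Inclusion of an exon of 76 bp was 54.6% (Col) and 70.6% (Ler), and the interval around it, of 599 bp in Col and 600 bp in Ler, was retained at 45.2% and 64.9%. AT2G16940, another CC1-like factor, had 3 marks, all higher in Col: an exon of 70 bp stood at 46.6% in Col and 36.0% in Ler.

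Pentatricopeptide repeat proteins, which mostly bind organelle RNA, fell into this group too. AT2G17033 had 5 marks, all higher in Col, with retention of a 400-bp interval at 16.5% (Col) and 2.50% (Ler). AT4G18975 had 5 marks in both directions, and retention of its 149-bp intron was 0.761% in Col against 46.6% in Ler, where it measured 141 bp.

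Other splicing genes among the members had many events and no mark. SR45a, a splicing regulator induced by stress, had an exon of 81 bp at 37.4% (Col) and 33.3% (Ler). PRP39, a component of the U1 particle that recognises donors, lies outside the product group above. It had 6 retention levels between 13.5% and 89.9% in Col and between 14.0% and 98.2% in Ler. In AT1G60900, annotated as a large subunit of the U2 auxiliary splicing factor, a 309-bp exon was included at 23.6% and 17.6%. PRP40B, also tied to the U1 particle, had 13 events, and its acceptor step of 77 bp stood at 71.4% and 74.3%.

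Of all events of the series 7.46% were marked, and several of the other product groups lay near that share. The 34 metabolic enzyme genes had 39 marks on 473 events (8.25%), the 10 kinase and phosphatase genes 8 on 124 (6.45%) and the 8 transport genes 12 on 94 (12.8%). The 9 genes with chloroplast or photosynthesis words in the product had 5 on 119 (4.20%). The 5 transcription genes had 7 marks on 60 events, 6 of them in AT3G61420. The seventh was in MAF3, a MADS-box repressor of flowering, where an acceptor step of 271 bp stood at 47.1% (Col, interval of 2230 bp) and 64.6% (Ler, 2231 bp). The 3 ubiquitin and proteolysis genes had 4 marks on 37 events, and the single translation gene, AT4G30690, had none on 15. The 84 genes with no such word in their product had 102 marks on 1059 events (9.63%).

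The annotation note of 49 members (29.5% of the 166 with a note, 17.3% over all genes) named the chloroplast or thylakoid. The set follows these words alone: it holds APX1 and GGT1, described below as enzymes of other compartments, and it leaves out CA1 and GAPB. Their 624 events carried 29 marks (4.65%), beside 170 marks on 1514 events (11.2%) in the other 118 members. Over all genes with such a note 5.03% of 2925 events were marked. In 35.3% of the events of the 49 members the same form stayed under 5% in both ecotypes, against 18.3% in the other members, and such events cannot differ by the 10 points that a mark has. Among the events without such a rare form, 29 of 404 (7.18%) were marked in the 49 members and 170 of 1237 (13.7%) in the others.

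FNR1, the ferredoxin-NADP+ reductase of the thylakoid, had 2 marks among 15 events, on 2 pairs of minor acceptors. The levels were 93.3% (Col) against 43.6% (Ler) in one pair and 97.7% against 63.2% in the other, with intervals 1 bp shorter in Ler (105 and 103 bp) than in Col (106 and 104 bp). The acceptor in main use, 18 bp from the outermost, took 99.9% and 99.8% of its pair with that one. GAPB, a Calvin cycle subunit, retained an 87-bp interval at 88.6% in Col and 65.8% in Ler. FBP, a fructose-bisphosphatase, had 2 marks on retention intervals that share an end, at 98.3% and 73.8% and, in the opposite direction, at 50.2% and 62.8%.

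Enzymes of photorespiration, which recovers carbon after oxygenation by Rubisco, were also among the members. GGT1, a peroxisomal glutamate:glyoxylate aminotransferase, had 19 events and 2 marks. An 82-bp interval stood at 95.1% in Col and 10.8% in Ler, with equal length in both genomes. The acceptor 4 bp nearer the donor took 100.0% of their pair in Col and 94.8% in Ler, so that the interval's own acceptor was the minor one in both. On the 5′ side a 270-bp intron was retained at 92.1% and 41.9%. HPR, hydroxypyruvate reductase, had 2 retention marks in opposite directions, at 94.9% and 70.4% and at 35.3% and 56.0%. GOX2, a glycolate oxidase with a closely similar neighbour, retained a 116-bp interval at 97.8% and 76.3%.

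APX1, the cytosolic ascorbate peroxidase that removes hydrogen peroxide, had 19 events, 18 of them around 1 intron on the 5′ side. Events that set inner sites against the main junction had levels of 0.148% to 2.39% in Col and 0.241% to 1.91% in Ler. The 2 marks lay on an acceptor 7 bp further on: its retention level was 90.0% in Col and 24.3% in Ler, with 444 and 443 bp. The acceptor in main use took 99.9% and 98.9% of its pair with that further site. CA1, a carbonic anhydrase of the chloroplast, had 1 mark among 19 events, a retention level of 6.04% in Col and 29.99% in Ler over 928 and 970 bp.

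FSD1 had 12 events, a mark on none, and 1 dominant site. In the 4 pairs with the first donor printed above, the inner donors reached 0.0902%, 3.27%, 0.195% and 0.165% in Col. The same pairs stood at 0.0902%, 3.80%, 0 and 0.180% in Ler. Among the rare inner donors the levels were far apart, for example 30% in Col and 80% in Ler for the donors at 102 and 128 bp, without a mark. LUH, by contrast, mixed its forms. The first pair of acceptors 3 bp apart stood at 32.5% in Col and 29.2% in Ler, and the second at 57.9% and 87.5%. Its only mark was on an intron of 81 bp in the coding span, at 46.3% and 34.6%.

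The 6 unmarked members with the smallest median differences were SEX1, TGG1, PHS2, PTAC16, PIFI and AT1G56220. SEX1, a glucan water dikinase needed to break down starch, had a median difference of 0.0822 points over 10 events, and its largest was 8.93 points. PHS2, a glucan phosphorylase, had a median of 0.208 points. The myrosinase gene TGG1, whose product splits glucosinolates, had 0.0849 points over 11 events. PTAC16, a protein of the transcribing plastid chromosome, had 0.236 points and PIFI, a chloroplast protein named for a chlorophyll fluorescence change, 0.300. AT1G56220, of a dormancy and auxin associated family, had 0.319 points, but its largest difference was 36.0 points without a mark. The same form was under 5% in both ecotypes in 8 of the 10 events of SEX1 and 6 of the 11 of TGG1. Other starch genes differed more: the branching enzyme gene SBE2.1 had a median of 1.69 points, and APL1, a subunit of the enzyme that makes ADP-glucose, 1.59 points with a largest difference of 79.4. TMT2, the sugar transporter with a set of 5 donors, had 4 marks among 18 events: the donor pair 249 bp apart stood at 62.9% in Col and 25.5% in Ler.

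One member, MIR162a, is a microRNA gene. Its mature products act on DCL1, the enzyme that makes plant microRNAs, in a known feedback. The mature sequences, located by the reference annotation and printed as DNA with bases 2 to 8, the seed, in capitals, are shown with the splice sites around them because the arms lie in different alternative segments.
ath-miR162a-5p, chr5:2634998-2635019, minus strand: tGGAGGCAgcggttcatcgatc
ath-miR162a-3p, chr5:2634936-2634956, minus strand: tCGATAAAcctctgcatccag
MIR162a outer donor, chr5:2635122-2635141, minus strand: tacttgtgGTatagattttg
MIR162a inner acceptor, chr5:2635034-2635053, minus strand: tttggagtttAGttggaaga
MIR162a inner donor, chr5:2634962-2634981, minus strand: ttaaaaatGTaaaagcatga
MIR162a first outer acceptor, chr5:2634868-2634887, minus strand: ggtttttgaaAGaagaaaaa
MIR162a second outer acceptor, chr5:2634865-2634884, minus strand: ttttgaaagaAGaaaaaagt

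MIR162a had 16 events, and 12 of them touched an interval that held 1 or both arms. The only mark stood on the 98-bp interval that holds the 3p arm, at a retention of 95.0% in Col against 64.9% in Ler, and the authors' deposited table gives it q = 0.00558. Set against the second outer acceptor, 3 bp further on, the same stretch stood at 73.1% and 53.3% without a mark. Inclusion of the 68-bp exon that holds the 5p arm was 96.7% (Col) and 89.8% (Ler) with the second outer acceptor. With the first outer acceptor it was included at 63.0% and 72.0%. Intervals that hold both arms were retained at 97.3% and 83.9% against the second and at 78.3% and 65.0% against the first outer acceptor. Of the 12 events 8 were lower in Ler and 4 higher. Besides the 68-bp exon with the first outer acceptor, the higher ones were a donor step of 160 bp at 9.09% in Col and 46.2% in Ler, and acceptor steps of 3 bp (6.67% and 36.4%) and 166 bp (61.5% and 63.2%), none with a mark.

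Genes that lie on each other can share reads where strand is not recorded. Another annotated gene overlapped 64 of the members, and 9.57% of their 836 events were marked. In the other 103 members 9.14% of 1302 events were. Neighbours with the same product name, from which reads may be hard to tell apart, were annotated beside 14 members. Where a difference was large the authors had not always marked it: of the 49 member events with a difference above 50 points, 30 (61.2%) had no mark, beside 148 of 299 (49.5%) over all events.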

How the data were processed

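Polyadenylated RNA of Col and Ler seedlings was sequenced in 4 samples. The submitters' processing notes name TopHat and TAIR10 but no versions. Each event has, per the file headers of the deposited table, an inclusion level as a fraction, 1 pooled value for each ecotype, and the authors' q value with a sign. The pooling of samples, the read minimum, the test, the strandedness and whether plantings were separate: not given in the sources used here. Depth is unknown, and no interval covers it.

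Fractions were converted to percent. Event coordinates name the flanking exon bases, so intervals were taken 1 base inwards: 463 of 978 member retention intervals then matched an annotated intron (0 after a shift of 1 bp). Names, products, coding spans and sequences came from the RefSeq annotation of TAIR10.1, in which all 167 members were found. Product groups follow words in the annotated product. Marked events are those with the authors' sign, and shares carry 95% Wilson intervals. No test was run. The counting of site pairs, regions and shared ends was tried on made-up events. Python 3.11.15, pandas 2.3.3 and matplotlib 3.10.9 were used.

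Members, lists and groups were chosen with earlier results of these data known. Genes were named by rule: the 12 with most events, the 10 with most marks (ties by the largest marked difference), the 8 largest marked differences in each direction, up to 3 per product group, and the 6 unmarked genes with the smallest median difference. A further 13 genes, among them FSD1, MIR162a, CA1, HPR, GOX2, GAPB and the splicing genes SR45a, PRP39, PRP40B and AT1G60900, were chosen after their values were seen. AT1G08910 and AT3G59300 were named only as examples, outside these rules.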

Additional observations from a re-analysis of the deposited data

How the results depend on the processing

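No paired analysis was possible because the deposited values are pooled per ecotype and carry no replicate numbers; leaving out single replicates could not be run for the same reason. The share of member events called, 9.31%, was 10.8% with q under 0.05 and at least 10 points whether signed or not. It was 18.5% with q alone (14.3% over all events) and 5.05% with the sign and at least 20 points. Without events that lack a coordinate or differ in interval length it was 6.86% (5.73% over all events). With 1 event per gene it was 12.6%, and with 1 per group sharing an interval end 11.7%. Where no share over all events stands beside a setting, it was not computed. The subsets with 1 event were mostly retention, at 79.0% and 79.3%, and 11.5% of all member retention events were marked. The part of retention in these shares was not tested. The share of genes with a call, 47.3%, was 61.1% with q alone, 32.9% at 20 points, 38.5% without events of differing length, 12.6% and 29.3% with 1 event per gene and per group, which leave fewer events by construction, and 56.5% in genes with 12 to 22 events. The retention share, 45.7%, was 48.2% without events of differing length, and 79.0% and 79.3% with the first event per gene and per group, since ordering by position puts retention events first. The median difference, 3.98 points, was 3.50 without events of differing length and 4.43 with 1 per group. The median level was 74.2% in Col for 12 to 22 events and 72.6% in Ler for 1 event per gene. The share of events with a shared end was 86.3% for 8 to 22 events. The causes of the other shifts were not tested. These were 20 of the recomputed values, and the other 51 stayed within the intervals of the reported ones. Read depth limits every level, and 31 unsigned member events met both q under 0.05 and a difference above 10 points. Using only members that overlap no other gene, an alternative chosen after seeing the data, gave 9.14% marked.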
